A study of Mus musculus with 4 samples.

Results

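The group described here is 41 genes that carry the signal of the gonadotropin-releasing hormone (GnRH) receptor from the cell surface to the nucleus. Members were fixed as a list of gene names, from the G proteins that couple to the receptor down to kinases, transcription factors and the phosphatases that end the signal. All 41 were named by at least 1 peak in the deposited annotation, which named 35667 genes in all, and together they had 765 of its 417506 peaks. Their promoters and distal regions were compared between cells given vehicle and cells given activin A.

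The GnRH receptor activates Gq/11 proteins and, in gonadotropes, also Gs. Phospholipase C β then releases diacylglycerol, which activates protein kinase C, and inositol trisphosphate (IP3), which opens calcium channels of the endoplasmic reticulum. Calcium, protein kinases C and A and the MAP kinase cascades converge on the transcription of the gonadotropin subunit genes, while activin acts on the same cells through SMAD proteins and raises transcription of the follicle-stimulating hormone β subunit.

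Open chromatin was mapped with ATAC-seq, whose transposase cuts accessible DNA and tags it for sequencing. The cells were LβT2, an immortalised mouse gonadotrope line, which the labels write as LbT2, LbT2b (titles) and LβT2b (culture protocol). Wells were seeded with 350000 cells and all cells were kept without serum overnight. They then received vehicle (2 libraries) or activin A at 1 nM (2 libraries) for 6 h. Each reaction used 50000 cells. The labels do not say whether the 2 libraries of a treatment came from separate cultures, so the p-values below measure only the spread between libraries. Because the cells were taken in bulk, a region open in some cells cannot be told apart from a region partly open in all.

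Mapped, non-duplicate reads of good quality on the autosomes, called high-quality reads here, numbered 172146474 to 224226184 per library. Peaks were called in each library on its own, and vehicle library 2 stood apart with 178358 peaks against 83344 in vehicle library 1 and 85112 and 70692 in activin libraries 1 and 2. Reads were enriched at start sites 2.72 and 2.48 times with vehicle and 3.12 and 3.04 times with activin, so signal over background differed with treatment. Of 12 gonadotrope markers, 11 had a start-site peak in all 4 libraries, Lhb, Cga and Gnrhr among them, while Fshb had a start-site peak in none. Only 6 of the 12 had a strong one in all 4, as defined below, and those of Pitx1, Lhx3 and Nr5a1 were weak with vehicle. All 4 immune markers and 4 of 5 fibroblast markers had no start-site peak, while the fibroblast marker Col1a1 had one in 3 libraries. Of 8 markers of other pituitary lineages only Neurod1 had one in all 4, and Gh and Pomc had weak ones in both vehicle libraries only. Of 3 endothelial markers Kdr had a weak one in all 4, Pecam1 in 2 and Cdh5 in none, and of 3 folliculostellate or stem cell markers Aldh1a1 had one in 3, S100b in 1 and Sox2 in none.

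The first question was which members have an accessible promoter. A peak was counted by name when the deposited annotation called it promoter-TSS and gave the member as its gene. By name, 23 and 21 members had a promoter peak in vehicle libraries 1 and 2, and 22 and 20 in activin libraries 1 and 2. In all 4 libraries 17 members had one, against 24.3% of 21900 protein-coding symbols. A peak was called strong at a −log10 q of at least 5, where q is the peak caller's false discovery rate, so a larger value is a peak further above background. Strong in all 4 were 12 members, against 17.4% of the symbols.

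The gene name of a peak misses many of these promoters. In 23.7% to 24.8% of promoter peaks per library, the annotation cites one gene's start and gives another gene's name. A start-site region was therefore defined from position: overlapping peaks of the 4 libraries were merged, and the region belonged to a member when it held a peak within 500 bp of a RefSeq start site. The 8 members with no entry in the RefSeq promoter table (Itpr1, Prkce, Mapk3, Dusp4, Camk2a, Camk2g, Adcy6 and Nfatc1) were placed by the identifier the annotation cites. By position 32 of 41 members had a start-site peak in all 4 libraries, 3 had one in 1 to 3 libraries and 6 had none, among them Adcy6, whose RefSeq gene end is overlapped by a weak peak that cites no Adcy6 promoter.

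The start-site peaks of 9 of those 32 were filed under a neighbouring or overlapping gene in at least 1 library. Prkca was filed under Gm11656, Prkcb under Gm23614, Prkce under Srbd1, Itpr2 under Gm15720, Gnas under Gm20721, Map3k1 under Gm15327 and Mapk14 under Slc26a8. Plcb4 and Prkacb made up the 9. Of the 33 members with a RefSeq entry, 27 (81.8%) had a start-site peak in all 4 libraries, against 52.8% of 17492 protein-coding genes with an entry, and 21 (63.6%) had a strong one, against 38.0%. No start-site peak in any library was found for 4 of the 33, against 33.4% of the genes. Peak strength, fold enrichment and q are the authors' values throughout.

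**Figure D1:**
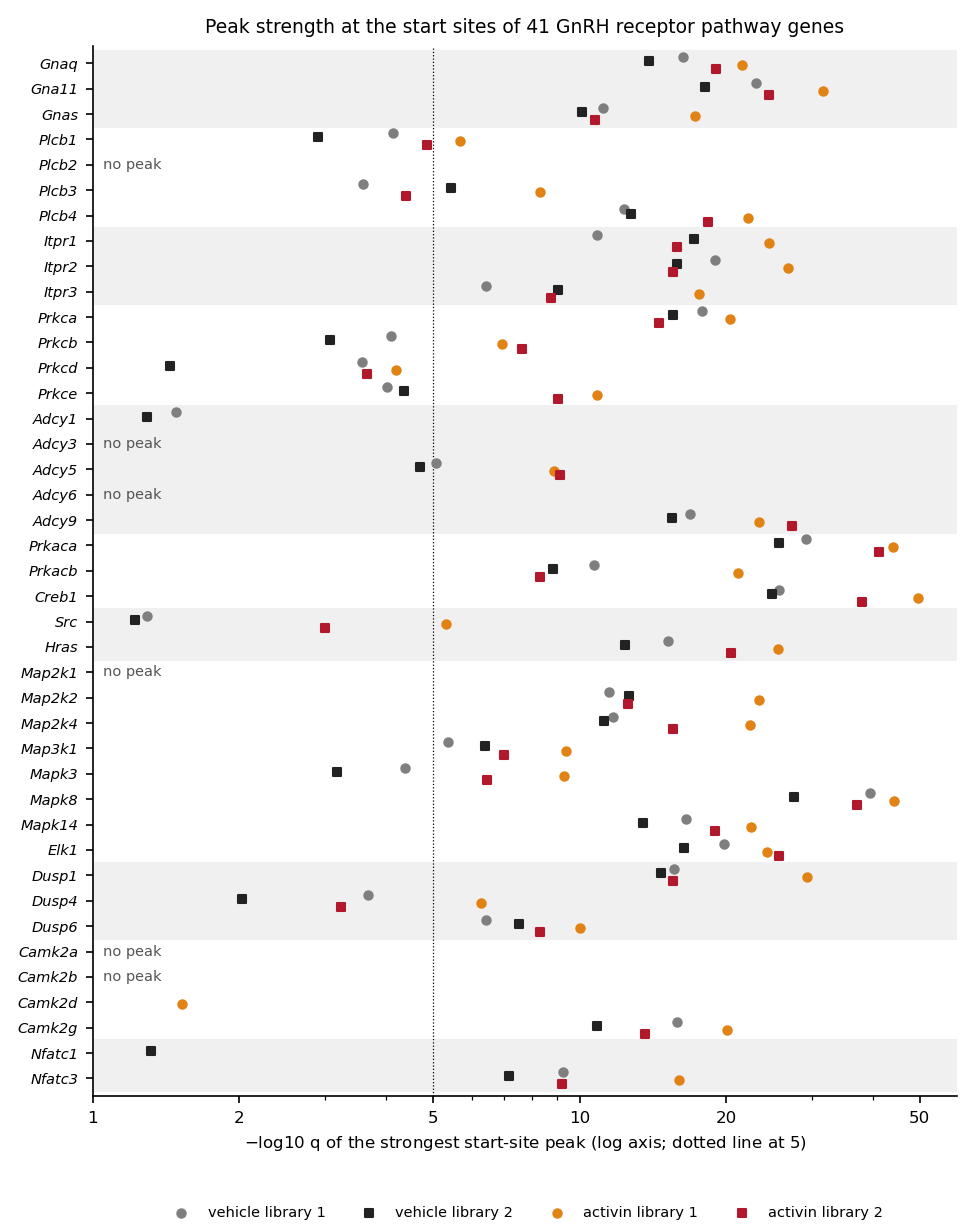
The horizontal axis gives the −log10 q of the strongest start-site peak on a log axis, and each row is a member, with shaded bands separating the roles. Grey and black points are vehicle libraries 1 and 2, orange and red points are activin libraries 1 and 2, and the dotted line marks a −log10 q of 5. Mapk8, Prkaca and Creb1 lie farthest to the right in every library, while Plcb2, Adcy3, Adcy6, Map2k1, Camk2a and Camk2b have no point, Adcy6 because the peak over its RefSeq gene end cites no Adcy6 promoter.

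The 5 promoters printed here were chosen to show the range of the group: the G proteins next to the receptor, a kinase with one of the strongest peaks, a feedback phosphatase and a kinase whose start site had no peak. Each line is the 250 bases before the start site, 5′ to 3′ on the strand of the gene, from the RefSeq promoter table of GRCm38.p6. Capitals mark matches to the motifs searched.
Gnaq, chr19:16132434-16132683, plus strand: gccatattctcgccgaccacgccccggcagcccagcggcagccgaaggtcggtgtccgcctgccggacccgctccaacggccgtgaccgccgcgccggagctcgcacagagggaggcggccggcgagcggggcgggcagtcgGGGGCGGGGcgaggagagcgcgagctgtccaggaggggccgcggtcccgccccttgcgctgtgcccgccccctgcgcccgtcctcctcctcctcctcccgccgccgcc
Gna11, chr10:81545163-81545412, minus strand: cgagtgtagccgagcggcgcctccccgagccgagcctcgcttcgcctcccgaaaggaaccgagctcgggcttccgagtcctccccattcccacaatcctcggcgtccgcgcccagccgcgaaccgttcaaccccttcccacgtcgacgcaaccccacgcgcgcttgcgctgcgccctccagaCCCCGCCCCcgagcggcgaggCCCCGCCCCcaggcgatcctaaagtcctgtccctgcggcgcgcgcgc
Prkaca, chr8:83972728-83972977, plus strand: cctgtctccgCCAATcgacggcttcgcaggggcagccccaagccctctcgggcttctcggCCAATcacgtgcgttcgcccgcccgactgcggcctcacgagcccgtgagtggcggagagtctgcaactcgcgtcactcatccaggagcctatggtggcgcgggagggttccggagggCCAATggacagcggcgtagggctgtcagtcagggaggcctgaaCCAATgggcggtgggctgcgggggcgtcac
Dusp1, chr17:26508473-26508722, minus strand: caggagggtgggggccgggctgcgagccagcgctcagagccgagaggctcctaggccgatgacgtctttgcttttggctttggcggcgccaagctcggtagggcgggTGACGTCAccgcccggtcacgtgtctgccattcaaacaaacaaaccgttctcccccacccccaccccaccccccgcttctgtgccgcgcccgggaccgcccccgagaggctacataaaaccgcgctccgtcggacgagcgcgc
Map2k1, chr9:64253606-64253855, minus strand: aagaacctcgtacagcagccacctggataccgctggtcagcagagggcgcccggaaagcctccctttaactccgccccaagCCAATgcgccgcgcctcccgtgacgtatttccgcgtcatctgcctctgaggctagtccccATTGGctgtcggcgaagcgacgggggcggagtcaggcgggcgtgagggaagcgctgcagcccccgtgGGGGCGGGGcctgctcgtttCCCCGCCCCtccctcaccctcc

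Motifs were searched on both strands of the 46 RefSeq windows of 33 members, each with 250 bases before and 50 after a start site, and in the 32851 windows of the whole table. The SP/KLF box GGGGCGGGG was in 30.4% of member windows against 11.4% of all windows. This box holds only G and C, with a CpG in it. A CpG ratio above 0.6, defined below, was found in 35 of the 46 member windows and in 35.8% of all. The share of the box was not compared among windows of like CpG ratio. The box lies 108 bases before the Gnaq start, and 68 and 47 bases before that of Gna11. The NF-Y box CCAAT was in 28.3% of member windows against 37.4% of all, and Prkaca carries 4 copies, the nearest 30 bases before its start. The palindromic cAMP response element TGACGTCA, the site that CREB binds, was in 1 member window, that of Dusp1 at 143 bases before the start, or 2.17% against 1.79% of all windows. The AP-1 site TGANTCA was in 4.35% of member windows (Plcb3 and Adcy3) against 7.81%, and the ETS core CCGGAAG in 4.35% (Plcb2 and Prkacb) against 8.86%. The NRF1 palindrome was in 2.17% (Map2k2) against 0.971%, and the SMAD palindrome GTCTAGAC in 0 member windows against 0.213%.

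The member windows are rich in CpG. The ratio of observed to expected CpG is above 0.6 in CpG islands. Its median was 0.921 in the 31 member windows with a peak within 500 bp in all 4 libraries. In the 12 with no peak it was 0.225, against 0.384 over all windows. Those 12 include further starts of Plcb4, Prkacb, Prkaca, Map2k4, Prkcd and Mapk8, which had a peak in all 4 libraries at another start. Of the 35 member windows above 0.6, 29 (82.9%) had a peak in all 4 libraries, close to the 81.3% of the 11756 such windows in the table. Among windows at or below 0.6 the share was 2 of 11 for the members and 13.02% for the table. Those 2 were a start of Nfatc3 and the start of Elk1. Windows of Map2k1, Camk2b and Adcy3 are CpG-rich, at ratios of 0.873, 1.28 and 0.934, and had no peak in any library. The share of member start sites with a peak is thus above that of all genes, and near it among windows of like CpG ratio.

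**Figure D2:**
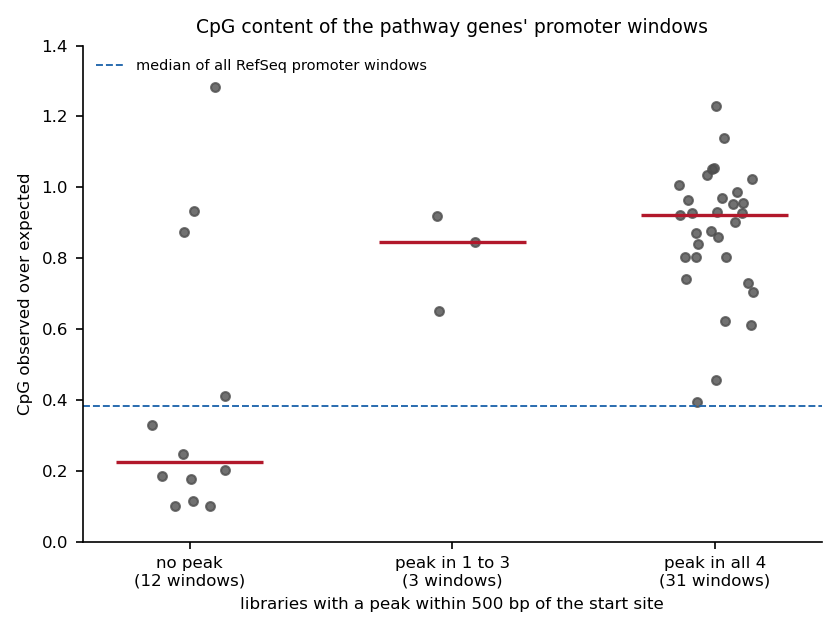
Each point is 1 of the 46 promoter windows of the members, placed by the number of libraries with a peak within 500 bp and by its ratio of observed to expected CpG. Red bars are group medians (0.225, 0.846 and 0.921) and the dashed line is the median of all RefSeq windows (0.384). The 3 high points without a peak are windows of Camk2b, Adcy3 and Map2k1.

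All 3 G protein α subunits had strong start-site peaks in every library. Gnaq, which links the receptor to phospholipase C, had −log10 q of 16.3 in vehicle library 1, 13.9 in vehicle library 2, 21.6 in activin library 1 and 19.0 in activin library 2. Its paralog Gna11 reached 23.0, 18.1, 31.7 and 24.6 in the same order, which is kept for 4 values in a row from here on. Both activin values lay above both vehicle values at both genes. In vehicle library 2 the Gna11 peak is annotated as exon, so that by name it has a promoter peak in 3 libraries only. Gnas, the α subunit of Gs, had 11.2, 10.1, 17.2 and 10.8 at the strongest of its 3 start-site regions, and the treatments overlapped.

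Of the 4 phospholipase C β genes, Plcb4 had the strongest promoter, with −log10 q of 12.4, 12.8, 22.2 and 18.4. Plcb3 had 3.58, 5.45, 8.28 and 4.41, and Plcb1, the longest member at 689 kb, had 4.14, 2.90, 5.67 and 4.85, so neither was strong in all 4. Plcb2, an isoform best known from blood cells, had no peak within 500 bp of its RefSeq start in any library, while promoter-annotated peaks that cite its identifier reached 3.47 and 1.59 in the vehicle libraries, with none in the activin libraries. The 3 IP3 receptor genes, whose products release calcium from the endoplasmic reticulum, all had strong start-site peaks: Itpr1 had 10.9, 17.2, 24.5 and 15.8, Itpr2 had 19.0, 15.9, 26.8 and 15.5, and Itpr3 had 6.42, 9.03, 17.6 and 8.74. In each of the 3, activin library 1 was highest and activin library 2 lay within or below the vehicle values.

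The protein kinase C genes had start-site peaks of unequal strength. Prkca (α) was strong throughout, with 17.9, 15.5, 20.4 and 14.6. Prkcb (β) had 4.10, 3.07, 6.92 and 7.63, and Prkce (ε) had 4.02, 4.36, 10.9 and 9.01, so both passed 5 in both activin libraries and in neither vehicle library. Prkcd (δ) stayed below 5 everywhere, at 3.57, 1.44, 4.19 and 3.65.

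The 5 adenylyl cyclases, which make cAMP, differed widely among themselves. Adcy9 had 16.9, 15.5, 23.4 and 27.4 and Adcy5 had 5.06, 4.71, 8.87 and 9.10. At Adcy1, peaks near the cut-off of the list were called in the vehicle libraries, at 1.48 and 1.29, and in neither activin library. Adcy3 and Adcy6 had no start-site peak by the rules used. For Adcy6, which has no RefSeq promoter entry, this rests on the cited identifier alone: a weak region of 3.23, 2.41, 3.65 and 4.28 at chr15:98609252-98610385, annotated as intergenic and 2150 bp before the annotated start of Adcy6, overlaps the 5′ end of the RefSeq gene.

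Downstream of cAMP, Prkaca and Prkacb encode catalytic subunits of protein kinase A, and Creb1 encodes the factor that this kinase phosphorylates. Prkaca had −log10 q of 29.2, 25.6, 44.0 and 41.3, and Creb1 had 25.7, 24.9, 49.6 and 38.0, with both activin libraries above both vehicle libraries at each. Ranked by −log10 q within each library's list of all peaks, Prkaca stood at percentiles 98.7 to 99.4 and Creb1 at 98.3 to 99.3. Prkacb was lower, at 10.7, 8.82, 21.2 and 8.31, and overlapped between treatments.

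In the MAP kinase branch, 7 of 8 members had a start-site peak in all 4 libraries, and 6 had a strong one. Mapk8 (JNK1) had the highest lowest value of the group, with 39.5, 27.6, 44.3 and 37.1. Mapk14 (p38α) had 16.5, 13.5, 22.5 and 19.0, and Map2k4, a kinase of JNK, had 11.7, 11.2, 22.4 and 15.6. Mapk3 (ERK1) was weaker, with 4.38, 3.17, 9.29 and 6.45, and passed 5 only in the activin libraries. Of the MEK genes that phosphorylate ERK, Map2k2 had 11.5, 12.6, 23.4 and 12.6. Map2k1 had none at its RefSeq start, and the peaks annotated as its promoter in 3 libraries, of 1.63, 2.07 and 1.13, lie 64.3 to 65.5 kb away at the other end of the gene. Map3k1, a MEK kinase, had 5.37, 6.39, 9.38 and 6.99, and the ERK target Elk1, on the X chromosome, had 19.8, 16.4, 24.3 and 25.6.

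Hras, the GTPase above the ERK cascade, had a strong promoter at 15.2, 12.4, 25.5 and 20.5. The kinase gene Src had start-site peaks of 1.29, 1.22, 5.32 and 3.002, the weakest among members with one in all 4 libraries except in activin library 1, where that of Prkcd was weaker, at 4.19. The phosphatase genes, which act against the MAP kinases, ranged from Dusp1 at 15.6, 14.7, 29.3 and 15.6, through Dusp6 at 6.43, 7.52, 10.0 and 8.30, to Dusp4 at 3.67, 2.02, 6.28 and 3.24. Among CaM kinase II genes, which respond to calcium, only Camk2g had a start-site peak in all libraries, at 15.8, 10.9, 20.1 and 13.7. Camk2a and Camk2b had none, Camk2d had one of 1.53 in activin library 1 only, and the promoter-annotated peaks of Camk2b, of 1.67, 1.49, 1.296 and 2.48, lie 64.5 to 65.2 kb inside the gene. Nfatc3, a calcineurin-dependent factor, had 9.23, 7.17, 15.997 and 9.22, while Nfatc1 had a single weak peak of 1.32 in vehicle library 2.

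The next question was whether promoter strength differs between treatments. At 19 of the 32 members with a peak in all 4 libraries, both activin values of the start-site −log10 q lay above both vehicle values, and at 0 they lay below. The background is high: the same held for 75.5% of the 9241 genes with a peak in all 4 libraries, and 0.682% were lower. The members' share of 59.4% is thus no higher than that of all genes. In 28 of the 32 members activin library 1 held the highest value, against 84.6% of genes. For the fold enrichment over background that the peak caller gave, 19 of 32 members were higher in both activin libraries, against 60.9% of genes, and 0 lower, against 1.51%. Start-site enrichment of the whole library, which was higher in both activin libraries, moves with these counts, and its part in them was not tested.

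Read density was then used: the high-quality reads in a peak, per kb of its width and per 1000000 such reads in the library. Over the start-site peaks of the 31 autosomal members with a peak in all 4 libraries the median density was 3.74, 3.45, 3.95 and 3.35, against 3.004, 2.63, 3.46 and 3.32 over 8918 genes. The members were denser than the median gene in all 4 libraries, by the least in activin library 2. At 19 of the 31 the density was higher in both activin libraries, against 65.2% of genes, and at 1 it was lower, against 2.22%. That member was Itpr3, with 4.25, 3.90, 3.81 and 3.35, whose activin peaks were 1467 and 1436 bp wide against 711 and 736 bp with vehicle. By name, where the set differs by library (22 and 20 members with vehicle, 21 and 19 with activin), the median came to 3.78 and 3.52 (vehicle) against 4.30 and 4.26 (activin), or 3.65 ± 0.185 against 4.28 ± 0.0308 (SD, n = 2). Over all start-site regions the difference was smaller, 0.155 in place of 0.628.

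To compare treatments on a common scale, 13871 shared autosomal regions were tested with limma, each with exactly 1 peak per library and a common part of at least 50% of their union. Log2 densities were centred on each library's median. At an adjusted p under 0.05, 0% of the regions were called. Before adjustment 9.53% had a p under 0.05, made up of 3.62% higher and 5.91% lower with activin, and no other tool was run. Among the 29 shared regions named for 21 members, 0 were called after adjustment, 1 was higher and 1 lower before it. The median log2 change was 0.06 over those 29, 0.04 over the 26 start-site regions of 25 members and 0.09 over 13 distal regions, against -0.00489 over all shared regions. Between libraries of the same treatment, the median density of the 29 had an SD of 0.0842 on the log2 scale, larger than their change of 0.06.

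The region that was higher before adjustment lies at chr16:35122802-35124055, 31280 bp before the annotated Adcy5 start and between genes. Its density came to 3.09 and 3.22 (vehicle) against 4.73 and 4.58 (activin), and its −log10 q was 9.33, 8.78, 21.8 and 16.2. Both activin values lay above both vehicle values in each measure, in a region picked because its density was higher. The log2 change was 0.29 ± 0.108 (SE), with an adjusted p of 0.479 in limma. It was 0.17 without vehicle library 1, 0.41 without vehicle library 2, 0.30 without activin library 1 and 0.27 without activin library 2. The peaks were narrower with activin, at 880 and 824 bp against 1254 and 936 bp, and without division by width the change had the other sign, -0.21 on the log2 scale.

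The region that was lower before adjustment is the Itpr1 promoter at chr6:108212461-108213472. Its density was 2.83 and 3.13 (vehicle) against 2.88 and 2.84 (activin), which overlap before centring. After centring the log2 change was -0.33 ± 0.130 (SE), with an adjusted p of 0.495 in limma. It was -0.17 without vehicle library 2, and -0.059 with scaling to all high-quality reads. Here the activin peaks were wider, 1012 and 845 bp against 551 and 516 bp, and without division by width the change had the other sign, 0.31 on the log2 scale. Shared regions were wider in both activin libraries at 12 of the members' 39, against 38.1% of all 13871.

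Other promoters had smaller changes, each with an adjusted p of at least 0.526 in limma. By name the largest positive changes were at Dusp4, 0.31 ± 0.174 (SE) on the log2 scale, Dusp1, 0.19 ± 0.120, and Gnaq, 0.10 ± 0.0983. Dusp1 density came to 4.25 and 4.31 (vehicle) against 6.66 and 5.20 (activin). The largest negative ones after Itpr1 were at Camk2g, -0.21 ± 0.0929, and Map2k2, -0.20 ± 0.122. Single libraries weighed on several of these: Dusp1 was at 0.045 without activin library 1 and 0.33 without activin library 2, Gnaq at 0.17 and 0.025, and Map2k2 at -0.35 without vehicle library 1 and -0.045 without vehicle library 2. The signs of Dusp1, Gnaq, Camk2g and Map2k2 turned without division by width, and those of Camk2g and Map2k2 also when densities were scaled to the library's whole high-quality read number, a scaling that moves the median of all shared regions to 0.27.

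Under that scaling, in which the higher enrichment of the activin libraries is kept, 553 of the 13871 regions passed the adjusted test as higher and 52 as lower, and 3 of the members' 29 were higher. All 3 are distal. One is the Adcy5 region above, with a log2 change of 0.56 ± 0.154 (SE) and adjusted p = 0.0339 in limma. Another, named for Mapk8 at chr14:33471223-33472008, had densities of 2.24 and 2.92 (vehicle) against 3.48 and 4.41 (activin), and a log2 change of 0.61 ± 0.164 (adjusted p = 0.0313). It lies 81294 bp before the start that the annotation uses for Mapk8, but the Mapk8 start-site region itself lies 56786 bp before that start. The third lies in intron 2 of Creb1 at chr1:64551657-64552351, with densities of 2.14 and 2.32 against 3.03 and 3.74, and a log2 change of 0.59 ± 0.167 (adjusted p = 0.0370). With centring on the median the changes at these Mapk8 and Creb1 regions were 0.34 ± 0.193 and 0.32 ± 0.157, and neither passed the adjusted test. In each of the 3 the activin densities lay above the vehicle densities. The regions were picked as higher on this same scale, so this is no further support.

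**Figure D3:**
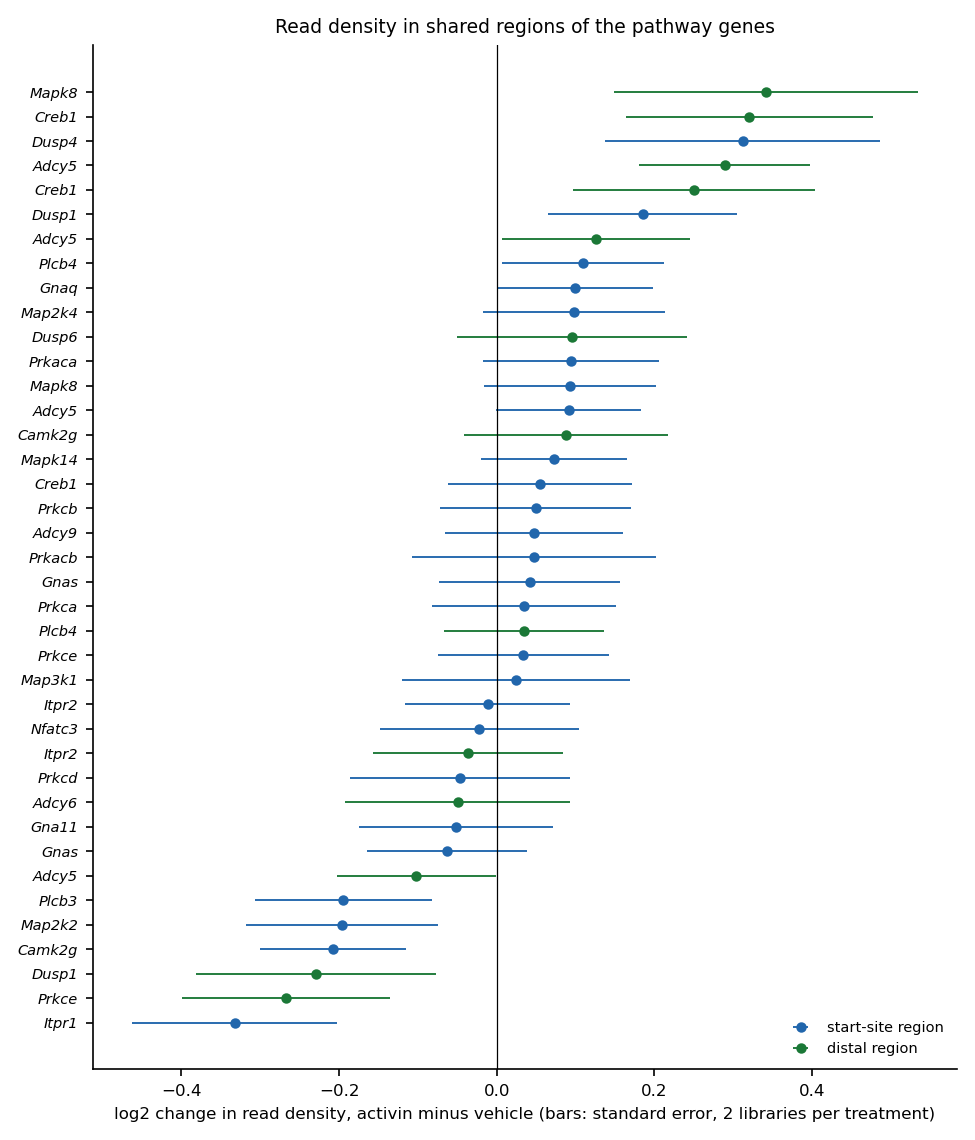
Each point is 1 of the 39 shared regions of the members, placed by the log2 change in read density with activin against vehicle, and bars are standard errors from limma with 2 libraries per treatment. Blue points are start-site regions and green points distal regions. The changes run from -0.33 at the Itpr1 promoter to 0.34 at a distal Mapk8 region, and the lowest adjusted p is 0.479.

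Distal peaks, meaning peaks that carry a member's name and are not annotated as promoter, numbered 141 and 293 with vehicle and 143 and 100 with activin. Counted among them were start-site peaks annotated as exon or intron, as at Adcy5 and Map2k4 in every library and Gna11 in vehicle library 2. The group means were 217 ± 107 and 121.5 ± 30.4 (SD, n = 2), a difference smaller than the spread between the vehicle libraries. Without vehicle library 2 the difference of the means was -19.5 peaks in place of -95.5. As a share of all distal peaks of the library the members had 0.194%, 0.178%, 0.193% and 0.166%. With only strong distal peaks, those start-site peaks included, the members had 16 and 18 with vehicle and 32 and 20 with activin. That was 0.283%, 0.279%, 0.272% and 0.239% of all strong distal peaks, counted alike. By share, the members had no more of the strong peaks with activin than with vehicle.

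Merged across libraries, and with all start-site regions left out, the members had 409 distal regions. A peak in all 4 libraries was found in 50 of them (12.2%), and in 1 library only in 276 (67.5%), of which 170 were in vehicle library 2. In both activin libraries only there were 10 (2.44%), and in both vehicle libraries only there were 23 (5.62%). All 255101 merged regions, start sites included, had 11.7%, 67.4%, 1.35% and 4.86% in the same order. The like set for the members is the 435 regions holding a peak with a member's name, start sites included. These had 16.8%, 63.9%, 2.30% and 5.52%. The share in all 4 libraries was thus above that of all regions with start sites counted, while the 12.2% of the distal regions alone was near it. Passing a −log10 q of 5 in all 4 libraries were 11 distal regions. These lie at Adcy5 and Prkce (2 each), Adcy9, Creb1, Dusp1, Dusp4, Itpr2, Mapk8 and Plcb4. The highest value in any library was in Plcb4, at chr2:135766289-135767765, annotated as intron 1 of 4, with −log10 q of 13.3, 16.04, 28.1 and 19.1. This region lies shortly after a further RefSeq start of Plcb4 at chr2:135764838, which had no peak within 500 bp. It is far from the Plcb4 start-site region at chr2:135658281-135660102. Other strong ones were the region in intron 2 of Creb1, with 8.02, 9.04, 22.7 and 25.2, and one 14553 bp before Adcy5, at chr16:35139650-35141004, with 11.3, 19.7, 23.4 and 14.7. The Adcy5 region was above the Creb1 region in all libraries but activin library 2.

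Some regions passed a −log10 q of 5 in both activin libraries and in neither vehicle library. Among the 30 distal regions strong in any library there were 3 of these (10.0%), and among the 32 start-site regions also 3 (9.38%). Of all 21218 strong regions, distal and start-site regions together, the share was 12.0%. The distal ones lay in introns of Plcb4, Itpr1 and Itpr2. That of Plcb4, annotated as intron 1 of 4, at chr2:135773296-135774379, had 2.40, 1.96, 5.13 and 5.41. Intron 4 of Itpr1 at chr6:108248817-108249563 had 3.81, 4.07, 8.16 and 5.21, and intron 44 of Itpr2 at chr6:146221197-146222253 had 1.71, 2.29, 5.61 and 6.84. Start sites with this pattern were those of Prkcb, Prkce and Mapk3. All 6 regions had a peak in every library. They were chosen by −log10 q in these same libraries, so their read density is no separate support. Of the start sites of 8918 genes with a peak in all 4 libraries, 65.2% were denser in both activin libraries. Read density was higher in both activin libraries at 3 of the 6: Prkcb (2.30 and 1.94 with vehicle, 2.65 and 2.63 with activin), Prkce (2.81 and 2.65, then 3.33 and 3.42) and the Plcb4 intron (1.31 and 1.16, then 1.44 and 1.90). It overlapped between treatments at the Itpr1 intron (1.74 and 1.31, then 1.62 and 1.56), the Itpr2 intron (1.18 and 1.21, then 1.03 and 2.10) and Mapk3 (2.60 and 3.80, then 4.58 and 3.19).

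A single region had the opposite pattern, against 0.382% of strong regions. It lies in an exon of Camk2b at chr11:6012529-6012876, with −log10 q of 6.52, 11.9, 4.08 and 4.63. It held only 5, 32, 2 and 2 high-quality reads, for densities of 0.135, 0.416, 0.0501 and 0.0530, far below those of the other regions named here.

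By the mean over the 4 libraries, which vehicle library 2 weighs on most, the 5 members with most distal peaks were Nfatc1, Adcy1, Itpr2, Adcy9 and Adcy5. The order differs by library, and Prkce, with 10, 12, 10 and 9, shared the highest number in activin library 2 with Itpr2. Nfatc1 had 10, 31, 13 and 7, none of them strong, the highest −log10 q in any library being 2.73, and none of its 44 distal regions had a peak in all 4 libraries. Adcy1 had 13, 25, 11 and 5, with 5 regions found in both vehicle libraries only and none in both activin libraries only. Those 5 peaked at a −log10 q of 2.07, so they lie near the cut-off of the lists. Itpr2 had 12, 22, 8 and 9, Adcy9 had 11, 23, 8 and 7, and Adcy5 had 9, 20, 10 and 6. Unlike Nfatc1 and Adcy1, these 3 each had distal regions strong in all 4 libraries. In all 5, vehicle library 2 had the most peaks, as it had for the series as a whole.

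**Figure D4:**
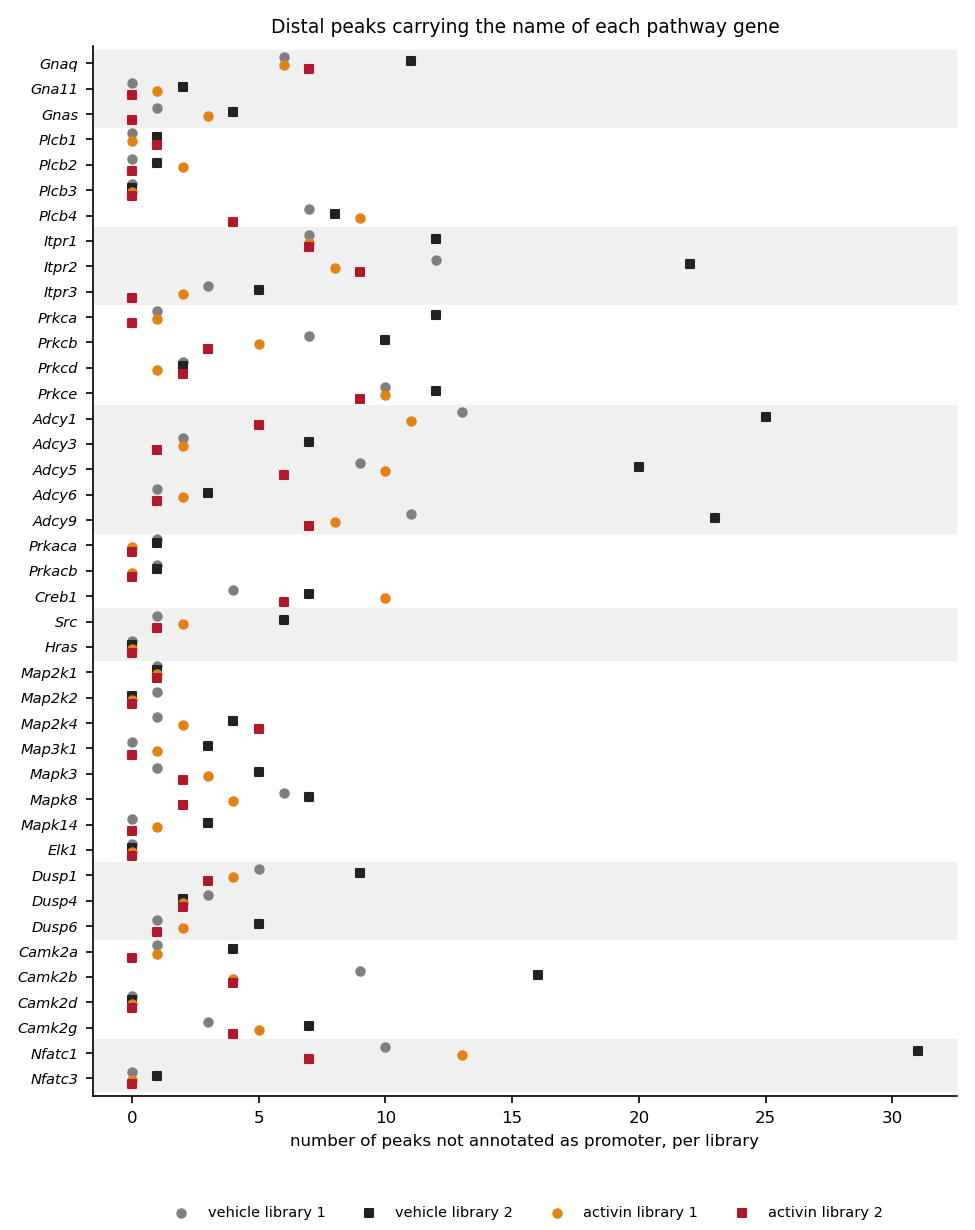
The horizontal axis counts the peaks carrying a member's name that are not annotated as promoter, with 1 row per member and the colours of the start-site plot. Nfatc1 reaches 31 peaks in vehicle library 2, and the black squares of that library lie farthest right in most rows. Plcb3, Hras, Elk1 and Camk2d have no distal peak in any library.

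The number of distal peaks per member depends on how genes are named. Across the 41 members it went with gene length at a Spearman rho of 0.517, and the number of peaks inside the gene body outside the start site at 0.883, both as descriptions over genes that share the same libraries. Of the peaks inside members' bodies, 63.4% to 69.5% per library carried another gene's name. Plcb1 was the extreme, with 51, 108, 51 and 40 peaks in its body, none of which carried its name. HOMER, the annotation tool, names a peak for the start site nearest to it.

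Of 65 other genes of the pathway, 51 had a start-site peak in all 4 libraries and 38 a strong one, against 32 and 23 of the 41 members, while 10 had none. Gnrhr, the receptor itself, had −log10 q of 6.82, 6.37, 16.5 and 12.98 at its start site. Of the 37 with a shared start-site region, 0 passed the adjusted test in limma, 0 were higher and 1 was lower before adjustment, with a median log2 change of -0.00663.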

How the data were processed

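ATAC-seq peaks of 2 vehicle and 2 activin libraries were analysed. Per the submitters' processing notes, Bowtie2, MACS2 and HOMER and the builds GRCm38 and mm10 were used; their versions and settings are not given in the sources used here. The authors deposited, per library, broad peaks with a whole-number score, a fold ratio over background and −log10 p-values and q-values. They also deposited the annotation, and per the file headers an ataqv 1.3.1 report gives high-quality reads overlapping each autosomal peak, so Elk1 has no density. Each library has its own peak calls, so the presence of a peak depends on depth and background. No value of other per-sample columns was used.

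The members, lists and start-site definition were chosen with earlier results of these data known. Peaks overlapping by at least 1 bp were merged. Densities of shared regions, log2 of (reads + 1) per kb, were tested with limma 3.58.1 in R 4.3.3 (eBayes with trend, no block) and adjusted over all shared regions with Benjamini-Hochberg at 0.05. A fold change on that scale understates regions with few reads. The step was tested on simulated data with a log2 change of 1 in 200 of 13871 regions, of which 174 were called, beside 14 unchanged ones. Smaller changes, such as those at the members, were not simulated. Genes named with values were those lacking a promoter peak in a library, the 5 with the strongest and the 5 with the weakest lowest q, the 5 with most distal peaks, regions past an unadjusted p of 0.05 or strong in 1 treatment only, and the 3 largest promoter changes each way. Others are given to cover each role. Alternatives were density without width, another scaling, a pseudocount of 10, a minimum of 50 reads, a common part of 80%, other promoter definitions, thresholds and distances, equal peak numbers, the replicate block, and each library left out. Sequences are from RefSeq, GRCm38.p6, in which 33 of 41 members matched by symbol.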

Additional observations from a re-analysis of the deposited data

How the results depend on the processing

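Over all shared regions, the count past the adjusted threshold in limma, 0 as reported, was 39 without division by width, 605 with scaling to all high-quality reads, 1 with a pseudocount of 10 and 4 with the replicate block, and 0 to 9 with 1 library left out, the 9 without activin library 2. For the members' 29 regions it was 3 with scaling to all high-quality reads, where their median log2 change was 0.33, and 0 under every other alternative run. Leaving out 1 library gave 0 past the threshold each time and a median of 0.02 to 0.07. With a common part of 80%, only 3 of the 29 regions were left to test, so the 0 there says little. The replicate block, which pairs libraries by number, left 0 member regions past the threshold and the median at 0.06. The correlation of the deviations of same-numbered libraries was -0.03 over 13871 regions, so the numbers gave no sign of pairing.

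Signs turned without division by width at the Itpr1 promoter (0.31), the Adcy5 distal region (-0.21), and the Camk2g (0.012), Map2k2 (0.041), Gnaq (-0.037) and Dusp1 (-0.10) promoters. With scaling to all high-quality reads they turned at the Camk2g (0.066) and Map2k2 (0.078) promoters. The cause was not tested. Peaks within 500 bp of a RefSeq start gave 27 members in all 4 libraries and 21 strong ones, and start-site regions, chosen after seeing the data, gave 32 and 23. Leaving out 1 library gave 17 to 19 and 12 to 14 by name.

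The difference in distal peaks was 9 with strong peaks only, -11.5 with equal peak numbers, -185.5 over gene bodies and -171.5 to -19.5 with 1 library left out. For the median promoter density it was 1.34 without division by width, 0.155 over start-site regions and 0.497 to 0.759 with 1 library left out. In the limma fits with 1 library left out, the lone library of a treatment is assumed to vary like the others. With 2 libraries per treatment, small changes cannot be told from the spread between libraries.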
